A study of Mus musculus with 26 samples.

Results

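The genes described here are 40 genes of DNA replication and S phase, read in mouse neural stem cells on Affymetrix arrays. The list was given by name. Each gene was read through every probe set (a group of probes for 1 stretch of sequence) annotated with that gene and no other, and their values were averaged. All 40 were found among 23152 genes, through 647 probe sets in all, with 5 to 43 per gene and a median of 15. Values are on a log2 scale, so a difference of 1 is a 2-fold difference.

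The cells came from wild-type C57BL6 embryos at E14.5, and every sample received a construct by lentivirus. The first set of 18 arrays had pools 1, 2 and 3. Each pool held samples given eGFP (a fluorescent control protein, with 2 repeat arrays per pool), MYBtr, MYBQKI5, MYBQKI6 or QKItr. MYBQKI joins the transcription factor MYB to the RNA-binding protein QKI, a fusion known from angiocentric glioma, and the meaning of tr is not given. In the second set of 8 arrays all cells carried MYBQKI6, and either the cells' own Qk gene was suppressed (samples 5_2, 6_1, 6_3, 9_1 and 9_3) or the bacterial control target LacZ was (samples 1, 2 and 3). The last number of a sample's name groups these 8 samples, and nothing in the labels ties it to the pools of the first set or says what the first numbers 5, 6 and 9 mean. The promoter that drives the constructs, the share of cells infected and what a pool consists of are not given in the sources used here. Each construct was compared with eGFP, and suppression of Qk with that of LacZ.

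DNA is copied once per division. In G1, CDC6 and CDT1 load the MCM2 to MCM7 ring, the core of the replicative helicase, onto origins. At the start of S phase CDC45 and the GINS complex join that ring and turn it into an active helicase. Polymerase alpha with primase then starts each strand, and polymerases epsilon and delta extend it while held by the PCNA clamp, which the RFC complex loads. Cyclin E and the E2F factors control entry into S phase, and many genes of this machinery are known E2F targets, so their mRNAs rise together in dividing cells. Neural stem cells divide in culture, and mRNAs of this kind are therefore common markers of how many cells are cycling.

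The promoters of the genes were searched for E2F core motifs, since these are what a reader would look for in genes that move together. Of the 40 genes, 33 had entries, with 38 windows of 300 bases (250 before the RefSeq start and 50 after, build GRCm38.p6). Both strands were read. TTCCCGC was in 47.4% of the genes' windows and in 4.60% of all 32851 windows of the table. For TTGGCGC the shares were 21.1% and 2.45%, for TTCGCGC they were 18.4% and 1.59%, and for TTGCCGC they were 5.26% and 1.81%. At least 1 of these 4 cores lay in 25 of the 38 windows (65.8%), belonging to 22 genes, against 9.57% of all windows. The NF-Y motif CCAAT lay in 57.9% of the genes' windows and in 37.4% of all windows. Of the MYB motifs, AACGG lay in 31.6% against 17.5% and AACTG in 31.6% against 44.8%, and either of them in 57.9% against 55.1%. Each line below holds the 140 bases before the start, 5′ to 3′ on the gene's strand, with E2F cores in capitals. Mcm6, a subunit of the ring, is shown for its repeated cores at chr1:128359706-128359845 (minus strand), where the first bases of 4 cores lie 109, 106, 46 and 43 bases before the start and neighbouring cores overlap. Chaf1a, a subunit of the chromatin assembly factor that deposits histones on new DNA, is at chr17:56040276-56040415 (plus strand), with cores 56 and 47 bases before the start. Dtl, the adaptor by which an ubiquitin ligase recognises CDT1 on the clamp, is at chr1:191575545-191575684 (minus strand), with cores at 109 and 7. Uhrf1, which binds half-methylated DNA behind the fork, is at chr17:56303197-56303336 (plus strand), with a core at 48. Rrm1, the large subunit of ribonucleotide reductase, is at chr7:102441555-102441694 (plus strand), with a core at 67. Mcm10, which joins helicase and polymerase alpha, is at chr2:5012792-5012931 (minus strand) and is shown as a gene with no such core anywhere in its window.
Mcm6: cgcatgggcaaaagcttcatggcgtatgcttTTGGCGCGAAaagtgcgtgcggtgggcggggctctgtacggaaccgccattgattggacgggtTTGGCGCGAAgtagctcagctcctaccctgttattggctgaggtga
Chaf1a: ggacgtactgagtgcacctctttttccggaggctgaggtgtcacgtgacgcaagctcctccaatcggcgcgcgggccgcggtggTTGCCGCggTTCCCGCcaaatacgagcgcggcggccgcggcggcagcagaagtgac
Dtl: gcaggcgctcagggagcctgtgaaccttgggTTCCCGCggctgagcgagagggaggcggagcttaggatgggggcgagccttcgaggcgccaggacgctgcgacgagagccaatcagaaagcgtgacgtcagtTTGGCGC
Uhrf1: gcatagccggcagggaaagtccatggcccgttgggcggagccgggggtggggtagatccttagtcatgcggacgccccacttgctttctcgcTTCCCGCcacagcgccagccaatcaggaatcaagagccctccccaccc
Rrm1: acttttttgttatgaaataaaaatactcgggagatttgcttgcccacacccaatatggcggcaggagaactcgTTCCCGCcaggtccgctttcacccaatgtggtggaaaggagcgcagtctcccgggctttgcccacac
Mcm10: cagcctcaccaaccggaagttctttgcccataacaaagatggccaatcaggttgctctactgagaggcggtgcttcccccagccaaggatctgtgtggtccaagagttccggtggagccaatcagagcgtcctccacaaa
A match is a description of letters and not a measured binding site.

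The values of Mcm2, a ring subunit, show the pattern of most of the 40 genes. In pool 1 Mcm2 read 6.99 with eGFP, 7.86 under MYBtr, 7.53 under MYBQKI5, 7.41 under MYBQKI6 and 6.70 under QKItr. In pool 2 it read 6.81, 7.23, 7.28, 6.93 and 6.67 in the same order. In pool 3 it read 8.05, 8.12, 8.13, 8.04 and 8.10. All 5 pool 3 samples were above all samples of the other pools, and within pool 3 the constructs lay between 8.04 and 8.13.

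Cdc6, the ring loader, read 4.70, 4.54, 4.46, 4.55 and 4.32 in pool 1. It read 4.82, 4.92, 5.41, 4.63 and 4.71 in pool 2, and 6.14, 6.35, 6.07, 6.24 and 6.43 in pool 3. The lowest pool 3 sample of Cdc6 was above the highest of the other 10. Pcna, the clamp, read 7.48, 7.63, 7.43, 7.67 and 7.70 in pool 1, then 7.36, 7.57, 7.70, 7.54 and 7.38 in pool 2. In pool 3 Pcna read 8.09, 8.15, 8.13, 8.12 and 8.15, again with no overlap. Rrm2, the small subunit of ribonucleotide reductase that is made in S phase, read 5.37, 5.63, 5.09, 5.73 and 5.43 in pool 1. It read 5.75, 6.18, 6.44, 6.21 and 5.73 in pool 2, and 7.35, 7.38, 7.12, 7.06 and 7.45 in pool 3. Pools 1 and 2 met at 5.73 for Rrm2 and pool 3 stood apart from both.

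Among the regulators of S phase entry, E2f1, the transcription factor that drives it, read 5.75, 6.02, 6.16, 6.03 and 5.53 in pool 1, and 6.08, 6.65, 7.01, 6.52 and 6.17 in pool 2. In pool 3 E2f1 read 6.73, 6.99, 6.90, 6.68 and 6.87, above pool 1 in every sample, while the MYBQKI5 sample of pool 2 was the highest of all 15. Ccne1, cyclin E1, read 5.57, 5.54, 5.73, 5.90 and 5.56 in pool 1, and 5.55, 5.83, 5.77, 5.49 and 5.50 in pool 2. It read 6.06, 5.83, 5.90, 6.10 and 6.04 in pool 3. For Ccne1 the pool 3 and pool 1 samples overlapped.

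**Figure D1:**
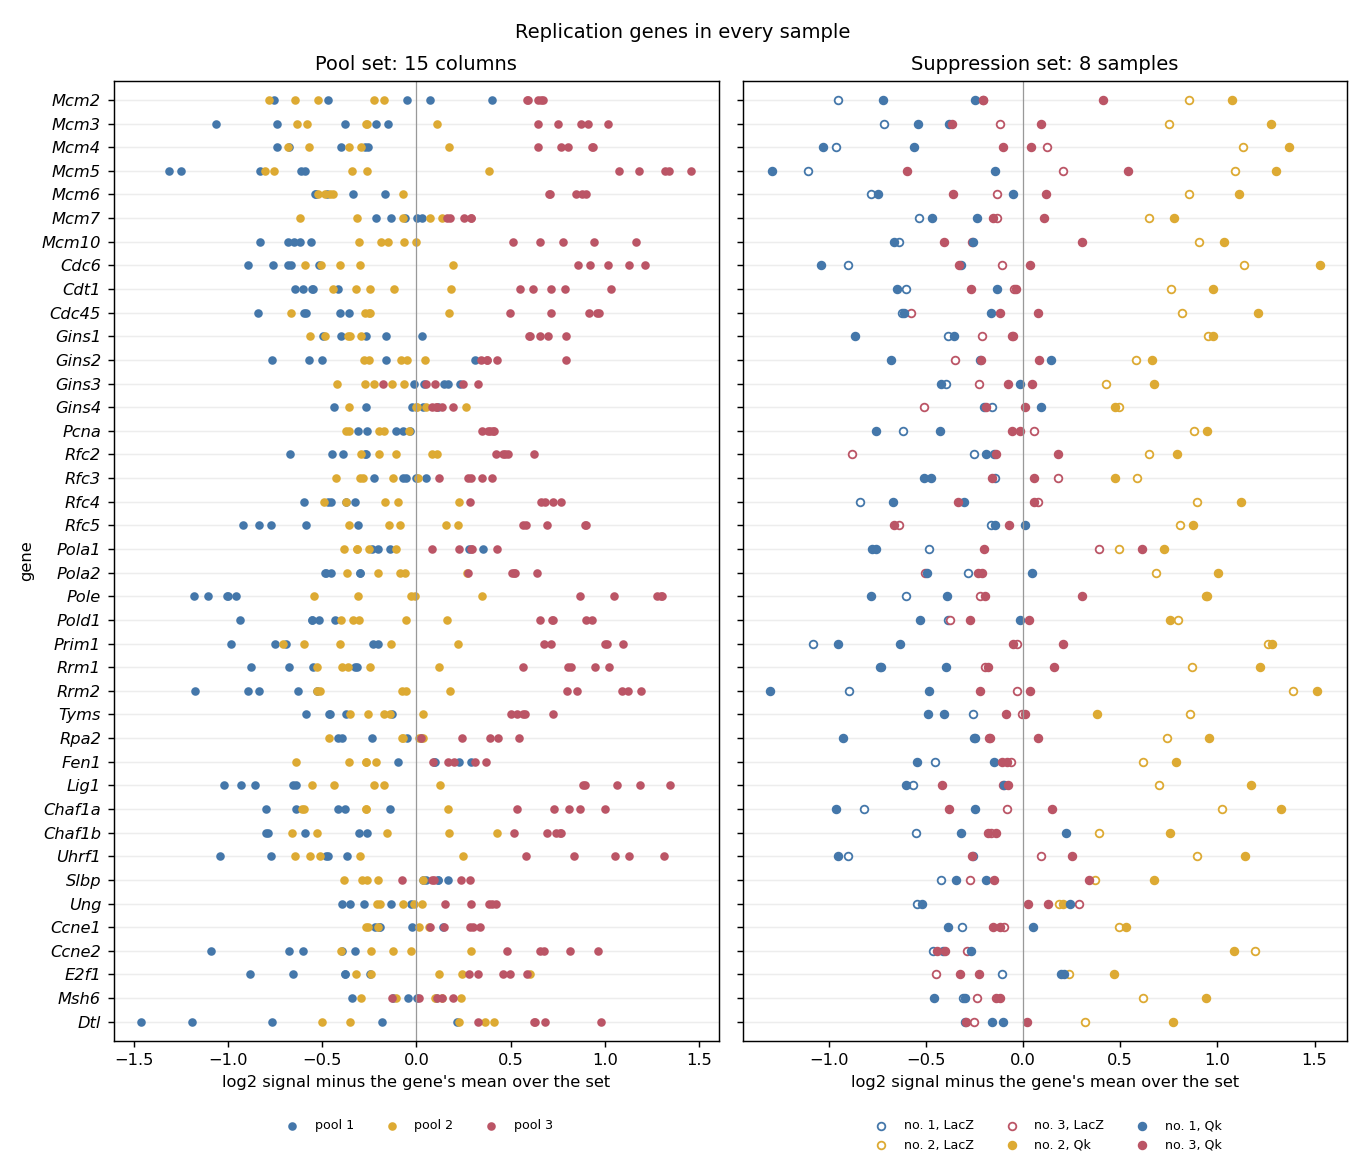
Log2 value of each of the 40 genes minus that gene's mean over the set (horizontal axis), with 1 point per column for the 15 construct and pool columns (left, coloured by pool, the 2 eGFP arrays of a pool averaged) and for the 8 suppression samples (right, coloured by second number, open for LacZ and filled for Qk). Pool 3 is above both other pools in all 5 constructs in 31 of the genes. Both samples with second number 2 are above the other 6 in 38. Neither count is given here for all genes. The sets were fitted apart and are not to be compared.

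Over all 40 genes the mean log2 value was 5.69 to 5.94 in the 5 samples of pool 1, 5.92 to 6.35 in pool 2 and 6.72 to 6.96 in pool 3. A test of any difference between pools, with construct in the model, called 38 of the 40 genes (limma, Benjamini-Hochberg adjusted p under 0.05 over all 23152 genes, which is what called means throughout). The same test called 34.0% of all genes. Msh6, of mismatch repair, and Gins4, of the GINS complex, were the exceptions, with adjusted p = 0.51 and 0.22. Against pool 1, pool 3 was higher for 34 of the 40 genes and lower for 0, where 15.1% of all genes were called higher and 16.6% lower. Against pool 2, pool 3 was higher for 33 and lower for 0, where 3.30% and 3.10% of all genes were called. The median difference of the 40 genes was 1.14 between pools 3 and 1, where the median of all genes was -0.079, and 0.81 between pools 3 and 2, where it was -0.0064. Of the 22 genes with an E2F core in a window, 18 were called higher in pool 3 than in pool 1, with a median of 1.28. Of the 11 with a window and no core, 10 were called higher, with a median of 0.89. Against pool 2 these counts were 18 and 9. Whether a core goes with the difference was not tested. In 31 of the 40 genes pool 3 was above both other pools in all 5 constructs. No such count is given here for all genes, so how unusual it is cannot be judged from it. The labels do not say what a pool is, and the 5 constructs of a pool cannot be taken as separate from each other. These tests thus describe these 3 pools and not pools in general. A bulk sample also cannot tell apart fewer cells of a type from less RNA per cell.

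The licensing genes were called higher in pool 3 in 9 of 9 cases against either pool. Mcm5, a ring subunit, differed by 2.19 between pools 3 and 1 (SE 0.19, adjusted p = 1.68e-06), which is 4.57-fold, and read 5.29 to 6.01 in pool 1 against 7.68 to 8.06 in pool 3. Cdc6 differed by 1.73 (SE 0.14, adjusted p = 6.22e-07), or 3.32-fold, and Mcm10 by 1.48 (SE 0.11, adjusted p = 3.07e-07), or 2.78-fold. Mcm6 differed by 1.22 between pools 3 and 1 and by 1.20 between pools 3 and 2, and was level between pools 1 and 2, where the difference was 0.01. Cdt1, the partner of CDC6 in loading, differed by 1.29 and 0.93. Mcm7 differed least of the group, by 0.31 and 0.39 (adjusted p = 0.032 and 0.032).

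Of the 5 genes of helicase activation, 3 were called higher in pool 3 against either pool. Cdc45 differed by 1.37 between pools 3 and 1 and by 1.06 between pools 3 and 2. Gins1 differed by 0.93 and 1.08, and Gins2 by 0.80 and 0.59. Gins3 was at means of 6.44, 6.11 and 6.44 in pools 1, 2 and 3, so that only pool 2 was low. The members of one complex thus had unequal differences, from -0.0057 for Gins3 to 0.93 for Gins1 between pools 3 and 1.

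The clamp and its loader were called in 5 of 5 cases against either pool, with Rfc5 at 1.41 and 0.77 and Pcna at 0.54 and 0.62. Of the polymerase genes, 4 of 5 were called against pool 1 and 5 of 5 against pool 2. Pole, the catalytic subunit of polymerase epsilon, which copies the leading strand, had the smallest p of all 40 genes between pools 3 and 1. It read 4.41, 4.37, 4.26, 4.37 and 4.19 in pool 1. It read 5.06, 5.36, 5.72, 4.83 and 5.34 in pool 2, and 6.68, 6.65, 6.24, 6.42 and 6.67 in pool 3. The 3 pools did not overlap for Pole, and pool 3 was 2.21 above pool 1 (SE 0.14, adjusted p = 1.07e-07), which is 4.62-fold. Pool 2 was 0.94 above pool 1 (adjusted p = 0.00039). Pold1, the catalytic subunit of polymerase delta, differed by 1.38 between pools 3 and 1. Pola1, the catalytic subunit of polymerase alpha, differed by 0.25 (adjusted p = 0.12).

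All 3 genes of nucleotide supply were called against either pool, with Rrm2 at 1.82 (SE 0.15, adjusted p = 1.13e-06) and Rrm1 at 1.38 against pool 1. Tyms, thymidylate synthase, differed by 0.98. Lig1, the ligase that seals Okazaki fragments, read 5.30, 5.39, 5.67, 5.68 and 5.46 in pool 1 and 7.38, 7.51, 7.21, 7.21 and 7.67 in pool 3. The difference for Lig1 was 1.89 (SE 0.13, adjusted p = 1.99e-07), or 3.72-fold. Fen1, the nuclease that trims those fragments, had means of 5.20, 4.73 and 5.30 in pools 1 to 3, and differed by 0.10 between pools 3 and 1 (adjusted p = 0.41) and by 0.58 between pools 3 and 2 (adjusted p = 0.0018).

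Of the chromatin genes, Uhrf1 differed by 1.61 between pools 3 and 1, Chaf1a by 1.26 and Chaf1b by 1.24. Slbp, which binds the stem-loop of histone mRNAs, was at 6.96, 6.64 and 6.99 in pools 1, 2 and 3 and differed by 0.03 between pools 3 and 1. All 4 genes of this group were called higher in pool 3 than in pool 2. Of the 2 repair genes, Ung, the uracil glycosylase, was called higher in pool 3 than in pool 1, by 0.57 (adjusted p = 0.00058), and Msh6 was not, at 0.15 (adjusted p = 0.31). Of the 4 genes of S phase entry, Ccne2, cyclin E2, differed by 1.33, Dtl by 1.33, E2f1 by 0.94 and Ccne1 by 0.33 between pools 3 and 1, and all were called. Between pools 3 and 2 only Ccne2 of these was called, at 0.82, with E2f1 at 0.35 (adjusted p = 0.098) and Dtl at 0.62 (adjusted p = 0.067).

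Some of these calls rested on which probe sets were read. With only the probe set of highest mean in place of the mean of all, 6 of the 34 genes called higher in pool 3 than in pool 1 lost that call. Ung was then lower in pool 3 than in pool 1, by -0.66 (adjusted p = 0.0037), the opposite call. Dtl was at -0.14 (adjusted p = 0.68), Ccne1 at -0.036 (adjusted p = 0.91), Rfc3 at -0.50 (adjusted p = 0.086), Pold1 at 0.43 (adjusted p = 0.22) and Mcm7 at 0.26 (adjusted p = 0.12). Fen1 was called higher, at 0.50 (adjusted p = 0.039), so that 29 genes were called higher and 2 lower, Ung and Gins3. Against pool 2, 23 genes were called higher by that rule, and Chaf1b, Gins2, Mcm3, Mcm7, Pola1, Pold1, Rfc2, Rfc3, Tyms and Ung lost the call. Among these 10, Pold1 was at 0.14 (adjusted p = 0.86), Pola1 at 0.14 (adjusted p = 0.76), Rfc3 at 0.16 (adjusted p = 0.78) and Ung at 0.033 (adjusted p = 0.94). Over all 647 probe sets, 568 (87.8%) were higher in pool 3 than in pool 1 on the mean of the constructs. Among them were 8 of 11 for Ung and 15 of 18 for Dtl. In all 5 constructs 424 of the 647 were higher, among them 4 of 11 for Ung and 12 of 18 for Dtl. These counts rest on sign alone, and none is given here for the array's other probe sets.

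Pools 1 and 2 were closer to each other. Pool 2 was higher for 13 of the 40 genes and lower for 3, where 13.6% and 12.8% of all genes were called, and the median difference was 0.24. The genes with the smallest p were Pole at 0.94, Rfc5 at 0.64, E2f1 at 0.59, Fen1 at -0.47, Mcm10 at 0.53, Lig1 at 0.57, Rrm2 at 0.61, Dtl at 0.71, Slbp at -0.32 and Gins3 at -0.34. The 3 lower genes were Fen1, Slbp and Gins3. Mcm2 was at -0.31 (adjusted p = 0.091). The count of higher genes fell to 7 without the MYBQKI5 columns, 7 without the QKItr columns and 8 without the MYBtr columns, and was 4 with the probe set of highest mean. With a construct left out, the counts for pool 3 were 31 to 35 against pool 1 and 28 to 34 against pool 2.

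**Figure D2:**
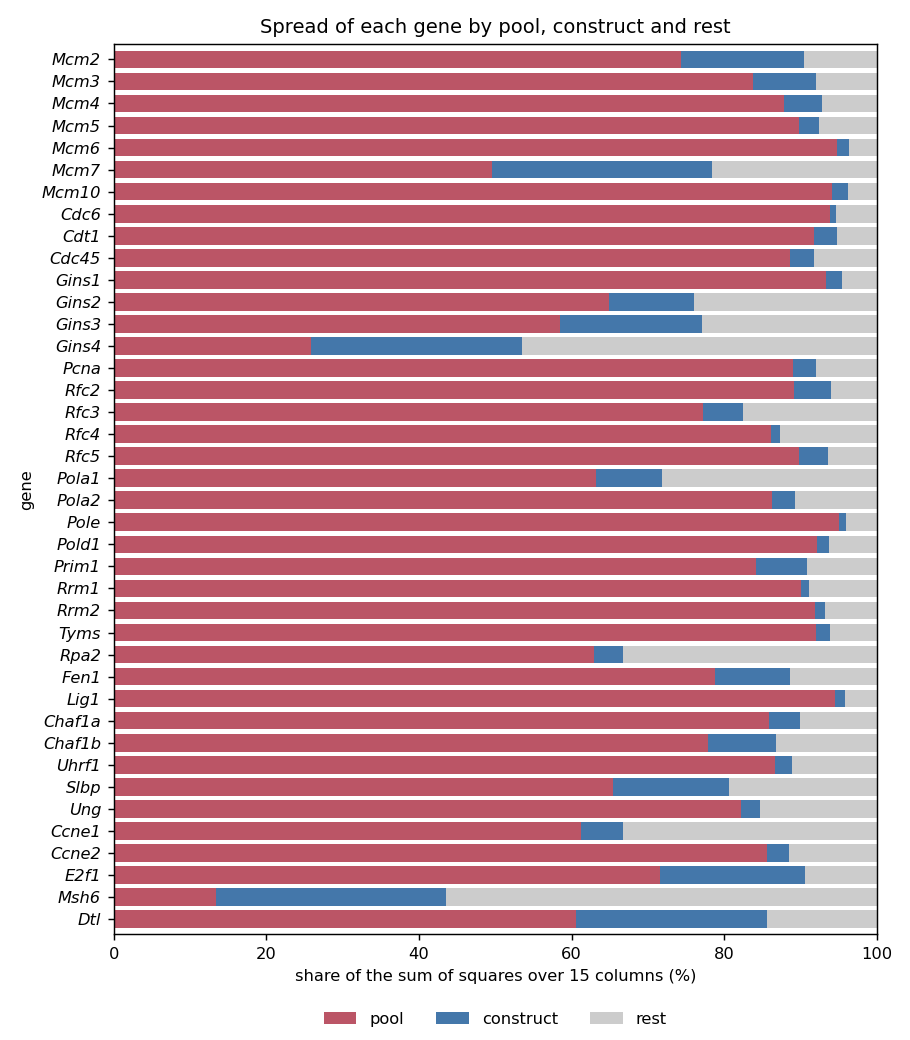
Share of each gene's sum of squares over the 15 columns (percent, horizontal axis) that lay between pools, between constructs and in the rest. For the 40 genes the median share between pools was 86.0% and between constructs 3.82%, where the medians over all 23152 genes were 30.7% and 24.2%.

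Most of the spread of these genes lay between pools. The share of the sum of squares between pools had a median of 86.0% over the 40 genes and was over 50% in 37 of them. The share between constructs had a median of 3.82% and a highest value of 30.2%, for Msh6. Pole was at 95.1% between pools and Cdc6 at 93.9%. Dtl, at 60.6% between pools and 25% between constructs, divided more evenly. Repeat eGFP arrays of the same pool differed by a median of 0.138 over 120 pairs of values and by at most 0.613.

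Many genes of the cell cycle outside the 40 were also higher in pool 3. Of 54 other replication genes tested, 40 were higher in pool 3 than in pool 1 and 2 were lower, Rrm2b and Orc2, with a median of 0.61. The smallest p belonged to Ccna2, cyclin A2, at 3.54, followed by Ticrr, which brings CDC45 to origins, at 2.52. The repressor E2f8 was at 2.66, Pole2, a partner of Pole, at 1.80 and Tk1, thymidine kinase, at 2.26. Of 19 genes of G2 and M phase tested, 18 were higher, with a median of 2.72, and 1, Ccnb2, was lower at -0.54. Bub1, of the spindle checkpoint, differed by 3.20, the mitotic kinase Plk1 by 3.29, Top2a, topoisomerase II alpha, by 3.85 and the proliferation marker Mki67 by 4.71. Against pool 2, 27 of the 54 were higher and 1, Orc4, lower, and 18 of the 19 were higher with a median of 1.22. The mean of the G2 and M phase list was 4.77 to 5.00 in pool 1, 5.83 to 6.75 in pool 2 and 7.20 to 7.74 in pool 3. That of the other replication genes was 6.19 to 6.30, 6.45 to 6.73 and 6.92 to 7.08. In both lists pool 2 thus also lay above pool 1 in every sample, which the mean of the 40 genes did not.

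**Figure D3:**
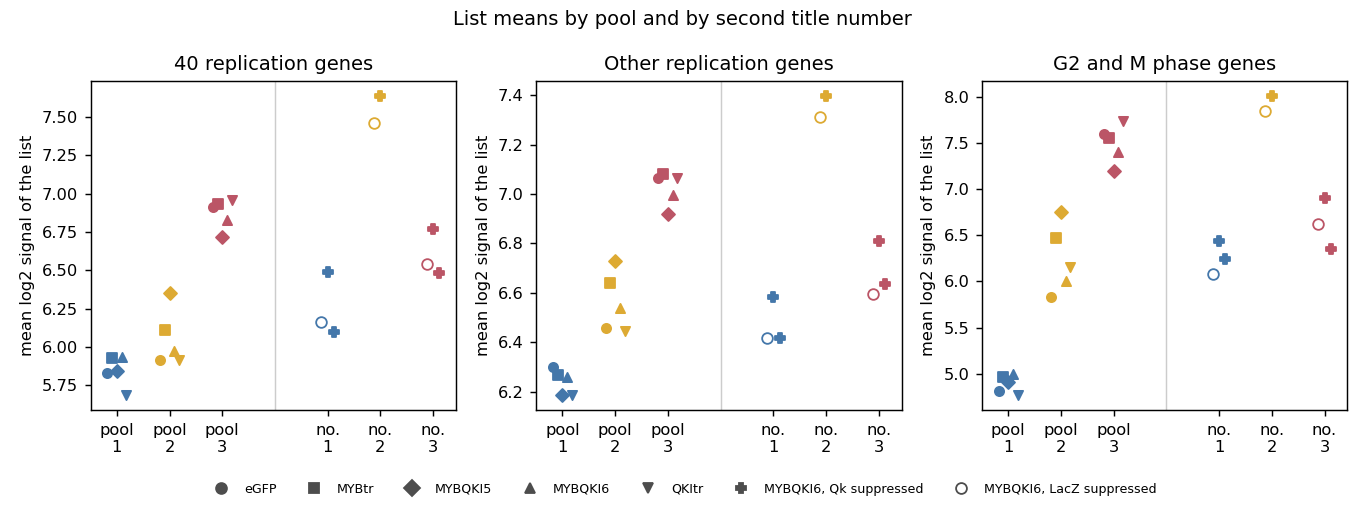
Mean log2 value (vertical axis, which does not start at 0 and differs between panels) of the 40 genes, the other replication genes and the genes of G2 and M phase in each sample, by pool in the first set and by second number in the suppression set, which a line divides; marker shapes give the construct or suppressed gene. For the 40 genes pool 3 lies at 6.72 to 6.96 and pools 1 and 2 at 5.69 to 6.35. Second number 2 lies at 7.46 and 7.64, with the other suppression samples at 6.10 to 6.77. The sets were fitted apart and are not to be compared.

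Some markers of cell types were called between pools, as were many genes of all kinds. Of all genes, 15.1% were called higher and 16.6% lower between pools 3 and 1. Between pools 3 and 2 the shares were 3.30% and 3.10%. Between pools 3 and 1, of 10 neural stem cell markers 2 were called higher (Fabp7 at 0.85 and Pax6 at 0.27) and 1 lower (Vim at -0.26). Of 6 astrocyte markers 3 were called higher (Aqp4 at 1.07, Aldoc at 0.86 and Aldh1l1 at 0.78). Of 6 neuron markers Map2 was higher at 0.62, Snap25 was higher at 0.28 and Tubb3 was lower at -1.09. Of 6 markers of oligodendrocyte precursors Olig1 was higher at 0.80, Cspg4 was higher at 0.44 and Pdgfra was lower at -0.62. Of 5 markers of microglia and immune cells Cd68 was higher at 0.65. Mag, 1 of 4 myelin markers, and Col1a2, 1 of 6 vascular and fibroblast markers, were lower at -0.26 and -0.31. The mean of the stem cell list was 7.95 to 8.19 in pool 1 and 8.10 to 8.27 in pool 3, and that of the astrocyte list was 5.63 to 6.64 and 6.25 to 6.67. Between pools 3 and 2, Nes at 0.52 (adjusted p = 0.036) and Fabp7 at 0.34 (adjusted p = 0.043), both of the stem cell list, were called higher and Pecam1, of the vascular list, lower at -0.35 (adjusted p = 0.022), with no call among the other markers. The part of these markers in the differences between pools was not tested.

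None of the 40 genes was called for any construct by the main test. Against eGFP, MYBtr, MYBQKI5, MYBQKI6 and QKItr each gave 0 called genes, where 1.37%, 0.199%, 0.765% and 0% of all genes were called. The mean of the 3 MYB constructs also gave 0, where 2.00% of all genes were called. At an unadjusted p under 0.05 limma gave 0 of the 40 genes in each of these 5 comparisons. Of all genes, 9.44%, 6.80%, 7.82%, 1.56% and 9.80% were at that level. These tests left the spread between pools in the error. That spread had a median share of 86.0% for the 40 genes and 30.7% for all genes, so the 2 shares are not alike in precision. Myb was higher than with eGFP by 2.62 with MYBtr, 2.37 with MYBQKI5 and 2.84 with MYBQKI6, all called. With QKItr it was higher by 0.24, not called. Qk differed from eGFP by 0.25 with QKItr, -0.10 with MYBQKI5 and -0.11 with MYBQKI6, none called. These arrays thus do not show by themselves that QKItr was expressed. They also do not tell a construct's Myb from the cells' own. The median difference of the 40 genes from eGFP was 0.048 for MYBtr, 0.069 for MYBQKI5, -0.0004 for MYBQKI6 and -0.017 for QKItr.

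The intervals of these differences were wide, since each group held all 3 pools. For Cdc6 the 95% interval of the difference from eGFP was -1.34 to 1.44 with MYBtr. With the pool as a block the interval was -0.33 to 0.42 and the difference stayed at 0.05. The same block gave intervals of -0.10 to 0.38 for Pcna, -0.18 to 0.66 for Rrm2 and -0.28 to 0.29 for Ccne1 with MYBtr. For QKItr they were -0.48 to 0.24 for Mcm2, -0.44 to 0.31 for Cdc6 and -0.32 to 0.32 for E2f1.

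**Figure D4:**
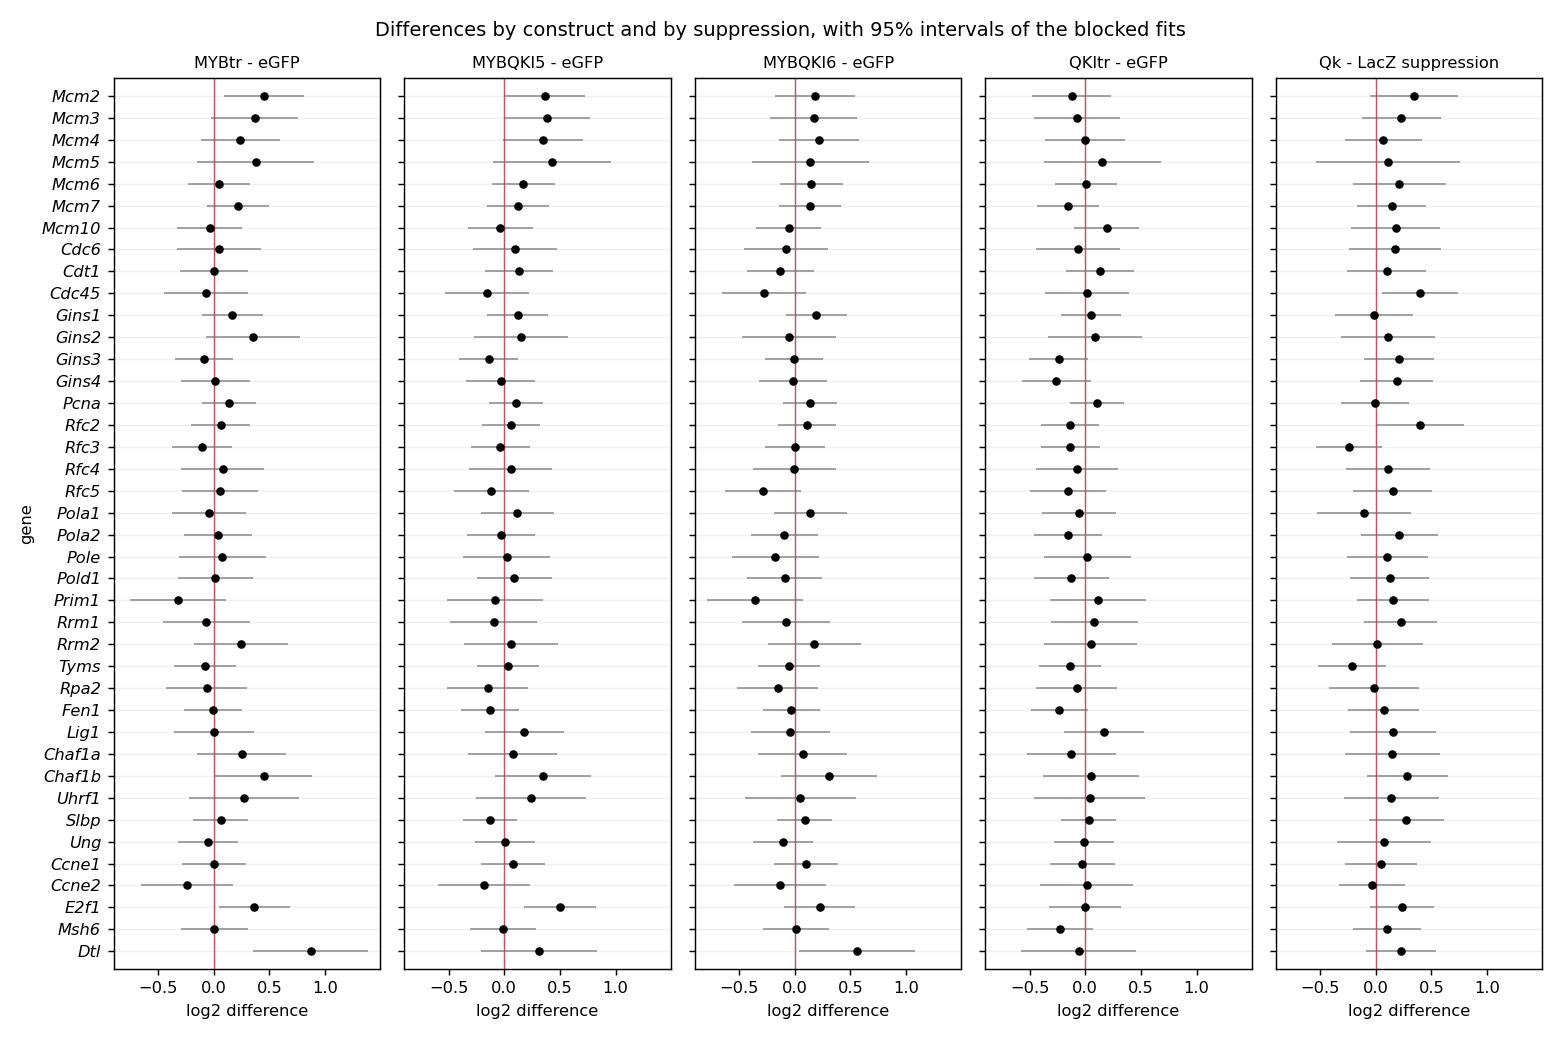
Differences of the 40 genes on the log2 scale (horizontal axis) for the 4 constructs against eGFP and for Qk against LacZ suppression, with 95% intervals from fits that hold the pool or the second number as a block. Most intervals cross 0, and Dtl with MYBtr, at 0.87, is the only gene called in these 5 fits.

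With the pool as a block, Dtl was called higher with MYBtr. Dtl read 5.07, 5.76 and 6.94 with eGFP in pools 1, 2 and 3 and 6.48, 6.67 and 7.24 with MYBtr. The difference was 1.41 in pool 1, 0.91 in pool 2 and 0.30 in pool 3, with a mean of 0.87 (SE 0.52, adjusted p = 0.72 without the block, and SE 0.24, adjusted p = 0.048 with it). The blocked test called 5.97% of all genes and 1 of the 40, Dtl, whose 95% interval was 0.35 to 1.39. Without pool 1 it was 0.60 (adjusted p = 0.33), without pool 2 0.85 (adjusted p = 0.31) and without pool 3 1.16 (adjusted p = 0.017), all with the block. The probe set of highest mean gave -0.17 for Dtl. With MYBQKI6 Dtl was 0.56 above eGFP (adjusted p = 0.29 with the block), and with MYBQKI5 0.31 (adjusted p = 0.67 with the block).

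E2f1 and Mcm2 were among the genes next to the threshold under the block. E2f1 with MYBQKI5 was above eGFP by 0.41, 0.93 and 0.17 in pools 1, 2 and 3, with a mean of 0.50 (adjusted p = 0.106 with the block). With MYBtr it was above by 0.27, 0.56 and 0.26 (adjusted p = 0.21 with the block). Mcm2 with MYBtr was above by 0.87, 0.42 and 0.07, with a mean of 0.45 (adjusted p = 0.16 with the block). Chaf1b, a subunit of the chromatin assembly factor, was 0.45 above eGFP with MYBtr (adjusted p = 0.27 with the block). At an unadjusted p under 0.05 the block thus gave 4 genes with MYBtr (Dtl, Mcm2, E2f1 and Chaf1b), where 17.2% of all genes reached it. It gave 2 with MYBQKI5 (E2f1 and Mcm2), where 13.5% did and the adjusted test called 2.63% of all genes and 0 of the 40, and 1 with MYBQKI6 (Dtl), where 14.6% did. Each of these counts is a smaller share of the 40 genes than of all genes.

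In the other role groups the gene with the smallest p differed from eGFP by 0.36 or less in either direction. With MYBtr the values were 0.22 for Mcm7, 0.35 for Gins2, -0.32 for Prim1, 0.14 for Pcna, 0.24 for Rrm2, -0.06 for Rpa2 and -0.05 for Ung. Prim1 is the catalytic subunit of primase, and Rpa2 a subunit of the protein that coats single strands. With MYBQKI5 they were -0.14 for Gins3, 0.35 for Chaf1b, -0.15 for Rpa2, 0.12 for Pola1, 0.11 for Pcna, -0.10 for Rrm1 and -0.01 for Msh6. With MYBQKI6 they were 0.14 for Mcm7, -0.28 for Cdc45, 0.31 for Chaf1b, -0.36 for Prim1, -0.15 for Rpa2, -0.28 for Rfc5, 0.18 for Rrm2 and -0.10 for Ung. With QKItr they were -0.26 for Gins4, -0.23 for Msh6, -0.23 for Fen1, -0.15 for Mcm7, -0.14 for Rfc3, -0.16 for Pola2, -0.14 for Tyms, -0.12 for Chaf1a and -0.03 for Ccne1. None of these was called with or without the block.

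The median difference from eGFP was not the same in every pool. With MYBQKI5 the 40 genes had a median of -0.049 in pool 1, with 19 above eGFP. In pool 2 it was 0.37, with 37 above, and in pool 3 -0.21, with 5 above. With MYBtr the medians were -0.0028, 0.20 and 0.031, and with MYBQKI6 0.036, 0.085 and -0.062. With QKItr they were -0.13, 0.0027 and 0.054. Each of these rests on 1 sample against the mean of 2 eGFP arrays, so whether a construct's effect differed between pools was not tested.

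The MYB constructs did not differ from each other in any called gene. MYBQKI5 against MYBtr, MYBQKI6 against MYBtr and MYBQKI6 against MYBQKI5 each gave 0 of the 40 genes and 0% of all genes, with and without the block. At an unadjusted p under 0.05 limma gave 0 of the 40 without the block, where 3.67%, 2.61% and 1.74% of all genes reached it. Those tests, too, left the spread between pools in the error. The median differences were -0.025, -0.059 and -0.032. Dtl was 0.56 lower with MYBQKI5 than with MYBtr, a difference of -0.56 (adjusted p = 0.57 with the block), and Gins2 was at -0.40 between MYBQKI6 and MYBtr. Between MYBQKI6 and MYBQKI5, Slbp was at 0.22 and E2f1 at -0.28.

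Of the 54 other replication genes only E2f3, a further E2F factor, was called in a construct comparison without the block. It was lower with the mean of the MYB constructs, by -0.43 (adjusted p = 0.038), where 2.00% of all genes were called. None of the 19 genes of G2 and M phase was called in any of the 9 comparisons of the 2 sets. With MYBtr and the block 5.97% of all genes were called. Among the 54 other replication genes Cdkn1b, a brake on cyclin E and CDK2, was then called higher at 0.47. So were Cdca7 at 0.78 and the histone chaperone Nasp at 0.60. Cdc25a, the phosphatase that activates CDK2, was called lower at -0.54. With MYBQKI6 and the block, where 4.39% of all genes were called, Pold2 and Pold4, accessory subunits of polymerase delta, were lower at -0.79 and -0.67, and E2f3 was lower at -0.47. Beside these comparisons the 6 astrocyte markers had median differences from eGFP of -0.98 with MYBtr (1 called lower), -0.64 with MYBQKI5 (0 called) and -0.58 with MYBQKI6 (0 called). The 6 markers of oligodendrocyte precursors had medians of -0.44 with MYBtr (1 called lower), -0.35 with MYBQKI5 (0 called) and -0.40 with MYBQKI6 (1 called lower). The mean of that list was 7.50 to 7.59 with eGFP, 7.00 to 7.15 with MYBtr, 7.13 to 7.23 with MYBQKI5, 7.07 to 7.25 with MYBQKI6 and 7.44 to 7.65 with QKItr. The mean of the astrocyte list was 6.47 to 6.76 with eGFP, 5.66 to 6.25 with MYBtr, 5.63 to 6.36 with MYBQKI5, 5.84 to 6.43 with MYBQKI6 and 6.60 to 6.73 with QKItr. In neither list did a MYB sample reach an eGFP sample, and the share of all genes for which this holds is not given here. The part of these markers in the values was not tested.

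In the suppression set the targeted gene was read first. Qk was 9.35, 9.30, 9.46, 9.70 and 9.58 in the samples labelled Qk-suppressed, 5_2, 6_1, 6_3, 9_1 and 9_3 in that order, and 9.68, 9.70 and 9.74 in the LacZ samples. The difference was -0.24 (SE 0.15, adjusted p = 0.73), and sample 9_1 lay within the LacZ range, so these arrays do not show by themselves that Qk was suppressed in every sample so labelled. Of the 40 genes 0 were called between the samples labelled Qk-suppressed and the LacZ samples, where 0.00432% of all genes were called. At an unadjusted p under 0.05 limma gave 2, where 7.49% of all genes reached it.

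Those 2 were Cdc45 and Rfc2. Cdc45 read 6.80, 5.43, 5.67, 4.98 and 5.47 in the samples labelled Qk-suppressed and 4.97, 6.41 and 5.01 in LacZ samples 1, 2 and 3. Rfc2, a loader subunit, read 7.50, 6.56, 6.89, 6.52 and 6.57 against 6.46, 7.36 and 5.82. Both groups overlapped, and the differences with the second number as a block were 0.40 for each (SE 0.16 and 0.18, adjusted p = 0.61 and 0.66). The next were Mcm2 at 0.34 (adjusted p = 0.69), E2f1 at 0.24, Slbp at 0.27, Tyms at -0.21, Pola2 at 0.21, Lig1 at 0.16 and Msh6 at 0.10. Pcna was at -0.0067 with a 95% interval of -0.31 to 0.30, Rrm2 at 0.013, Cdc6 at 0.17 and Ccne1 at 0.05. The median difference of the 40 genes was 0.14, with 33 above 0, against a median of 0.03 over all genes. Without the block it was -0.028, with 17 above 0. By pair within a number, the median was 0.35 for 6_1 and -0.038 for 9_1 against LacZ 1. It was 0.22 for 5_2 against LacZ 2, and 0.23 for 6_3 and -0.024 for 9_3 against LacZ 3.

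The second number divided the suppression samples more than the suppressed gene did. Mcm2 read 8.58 in LacZ 2 and 8.80 in Qk 5_2, the 2 samples with number 2. It read 6.77, 7.48 and 7.00 with number 1 (LacZ 1, Qk 6_1 and Qk 9_1) and 7.52, 8.14 and 7.52 with number 3 (LacZ 3, Qk 6_3 and Qk 9_3). Cdc6 read 7.28 and 7.67 with number 2, against 5.24, 5.82 and 5.10 with number 1 and 6.03, 6.18 and 5.81 with number 3. Pcna read 8.88 and 8.95, against 7.39, 7.57 and 7.25 and against 8.06, 7.99 and 7.95. Number 2 was above every other sample for each of these genes, and number 3 was above number 1 on the mean.

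Rrm2 read 8.20 and 8.32 with number 2, against 5.91, 6.33 and 5.51 and against 6.78, 6.84 and 6.59. Ccne1 read 6.54 and 6.58, against 5.73, 6.10 and 5.66 and against 5.95, 5.89 and 5.93. E2f1 read 6.48 and 6.71, against 6.14, 6.46 and 6.44 with number 1 and 5.80, 6.02 and 5.92 with number 3. For E2f1 the order of numbers 1 and 3 was thus the reverse of that of the genes above, and the lower of the number 2 samples was close to number 1. In 38 of the 40 genes both samples with number 2 were above all 6 others, a count not given here for all genes. The mean of the 40 genes was 7.46 and 7.64 with number 2, 6.10 to 6.49 with number 1 and 6.48 to 6.77 with number 3.

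Tested with the suppressed gene in the model, 35 of the 40 genes differed between second numbers, where 5.98% of all genes did. Number 2 was higher than number 1 for 37 genes and lower for 0 (3.97% of all genes were called higher), with a median of 1.34. It was higher than number 3 for 26 and lower for 0 (1.87% higher), with a median of 1.01. Against number 1, Rrm2 differed by 2.34 (SE 0.23, adjusted p = 0.000298), or 5.08-fold, and Prim1 by 2.18, or 4.55-fold. Cdc6 differed by 2.12, or 4.34-fold, Mcm4 by 2.11 and Rrm1 by 1.71. Gins4 at 0.60, Ung at 0.49 and E2f1 at 0.29 were not called. Against number 3 the values were 1.52 for Ccne2, 1.52 for Rrm2, 1.49 for Cdc6 and 1.32 for Rfc5. Number 3 was higher than number 1 for 2 genes, Prim1 at 0.93 and Mcm4 at 0.87 (0.367% of all genes were called higher). That count was 0 without LacZ 1, LacZ 3, Qk 6_3 or Qk 9_1, and 1 to 3 without any other sample. In the fits with 0 limma gave 9 to 14 of the 40 genes at an unadjusted p under 0.05, where 10.56% to 17.15% of all genes reached it.

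Number 2 is held by 2 samples only, 1 of each suppressed gene, and the calls rest on both. Without Qk 5_2 the calls fell to 16 against number 1 and 0 against number 3, and without LacZ 2 they were 26 and 0. Number 2 was then 1 sample, which the fit assumes to vary as those of numbers 1 and 3 do. On that assumption limma gave an unadjusted p under 0.05 for 35 and 37 of the 40 genes in the comparisons with 0 calls, where 13.1% and 8.81% of all genes reached it. Calls against number 3 fell to 8 without LacZ 3 and to 13 without Qk 9_3, and the test of any difference fell to 10 without Qk 5_2 and 19 without LacZ 2. The median difference stayed between 1.21 and 1.47 against number 1 and between 0.91 and 1.10 against number 3 with any sample left out.

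Other cell cycle genes also differed by second number. Of the 54 other replication genes 37 were higher with number 2 than with number 1, among them E2f8 at 2.31 and Gmnn, the inhibitor of CDT1, at 1.85, with a median of 1.02. Of the 19 genes of G2 and M phase 18 were higher against number 1, with Birc5, a subunit of the chromosomal passenger complex, at 2.45 and a median of 1.79, and 18 were higher against number 3. Of 10 stem cell markers only Nes, Fabp7 and Hes5 were called between numbers 2 and 1, higher by 1.35, 1.34 and 1.06, where 3.97% of all genes were called higher. Msi1 at -0.54, Slc1a3 at -0.40, Vim at -0.20, Pax6 at -0.12 and Prom1 at -0.0097 were below 0 and not called. Against number 3, Hes5 at 1.20 and Nes at 1.09 were called higher and Fabp7, at 0.96, was not (limma, adjusted p = 0.094). The stem cell list had means of 7.88 to 7.89 with number 2, 7.52 to 7.66 with number 1 and 7.52 to 7.81 with number 3. Among markers of other cells Aldoc was at 0.76, Map2 at 0.72 and Cd68 at -1.53 against number 1, all called. The part of these markers in the difference between numbers was not tested.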

How the data were processed

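Total RNA was biotin-labelled and read on Affymetrix arrays, per the labels. The values deposited by the authors are log2 values, to judge by values between 0.223 and 14.6 and by array medians of 5.61 to 5.74 in the pool set and 5.39 to 5.51 in the suppression set. The normalization and the array's genome build are not given in the sources used here. The 2 sets were fitted apart. Gene values are means over the probe sets that named 1 gene (233753 of 269751 probe sets, 23152 genes, no filter), symbols being matched to RefSeq names. No member lay below the 25th percentile of genes in either set. Precision is limited by the number of arrays.

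Group means were fitted with limma 3.58.1 (lmFit, contrasts.fit, eBayes; R 4.3.3, with tables read by data.table, version 1.17.8) and p-values adjusted over all genes. The pool set held 15 columns, the 2 eGFP arrays of a pool being averaged. The labels do not say that samples came from separate animals, so a p-value reflects only how much these samples vary. Samples sharing a pool number had correlated deviations from the group means (0.31 to 0.72, median 0.53, over 30 pairs, against a median of -0.23 over 60 others), as had suppression samples sharing a second number (0.22 to 0.57, median 0.32, over 5 pairs, against -0.21 over 10). Numbers were therefore taken to pair samples. Pool values are without a block unless stated, and Qk values are with the number as a block. The pairs of pools, the tests by second number and the fits without single constructs, pools or samples under a block were chosen after seeing the data.

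The 40 members and all lists were chosen with earlier results of these data known. Named genes are called members (the 10 of smallest p where more), the member of smallest p in each role group, 6 members shown in every sample, and called genes of the other lists by smallest p. Others were named for a role or after their values were seen. The fits were tested on simulated data. For the construct fit without a block those data held no difference between pools, so that test does not show how the fit behaves here. Further tools were Python 3.11.15, pandas 2.3.3, numpy 2.4.6 and matplotlib 3.10.9. Motifs binding the clamp in the proteins were not analysed here.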

Additional observations from a re-analysis of the deposited data

Results flagged for a closer look

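In the 5 samples labelled Qk-suppressed, Msh6 read 8.11 in sample 5_2 and 6.71 to 7.05 in the other 4. The gap below 5_2 was 0.757 of the group's range of 1.40, past the limit set for a single sample far from its group. Sample 5_2 is the only one of these 5 with second number 2, and LacZ sample 2 read 7.79. In all, 19 groups of values were checked in this way, 13 genes in the samples labelled Qk-suppressed and 6 in the eGFP arrays, and chance flags about 1 group in 20.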

How the results depend on the processing

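Of 166 counts of called members in the pool set under alternatives, 163 were 0, and all 13 in the suppression set were 0. The exceptions were all Dtl: 1 member for MYBtr against eGFP with the replicate block (0.87, adjusted p = 0.048) and with that block without pool 3 (1.16, adjusted p = 0.017), and 1 for the mean of the MYB constructs with the block without pool 3 (0.89, adjusted p = 0.022). The block changed no other call of a member between constructs. With the probe set of highest mean, the median difference of the 40 genes with MYBtr was 0.16. In the pool set the fits without 1 sample held no block, so the groups compared then held different pools. Their medians thus also hold differences between pools. Leaving out 1 sample or pool moved the medians from -0.22 to 0.40 for MYBtr, -0.14 to 0.38 for MYBQKI5, -0.27 to 0.34 for MYBQKI6, -0.41 to 0.32 for QKItr and -0.074 to 0.38 for the mean of the MYB constructs, with 0 to 1 members called. For MYBQKI5 against MYBtr they ran from -0.22 to 0.30, for MYBQKI6 against MYBtr from -0.42 to 0.24 (-0.12 with the block without pool 1), for MYBQKI6 against MYBQKI5 from -0.35 to 0.14 and for Qk against LacZ from 0.057 to 0.21, with 0 called. Without the replicate block the last median was -0.028. The median of pool 3 against pool 2 was 0.94 without the MYBQKI5 columns. Leaving out each sample gave 16 to 36 members higher with number 2 than number 1, 0 to 26 higher than number 3, and 10 to 34 in the test of any difference. Leaving out each construct gave 33 to 38 members called in the pool test. Among named members in the construct and suppression comparisons, 312 of 2407 alternative values had the other sign, none of them a called value. The cause of these changes was not tested.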
